A study of Mus musculus with 17 samples.

Results

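The right ventricle (RV) was compared with the left ventricle (LV) of the mouse heart on the day of birth, postnatal day 0 (P0). The samples were chosen by their titles, 3 RV and 3 LV libraries, and made up 6 of the 17 libraries of the study. All came from untreated male C57Bl/6 mice, and the labels place P0 before closure of the ductus arteriosus. Total RNA was sequenced as strand-specific, paired-end libraries, and 20624 messenger RNA entries have a level in RPKM (reads scaled by transcript length and library size). The other 11 libraries came from the same chambers at P3 (3 LV and 3 RV), called a transition stage, and at P7 (3 LV and 2 RV), when most cardiomyocytes are terminally differentiated. The labels call the libraries biological replicates. Whether hearts were pooled, or whether an LV and an RV library of the same replicate number came from the same animals, is not stated in the labels.

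Before birth both ventricles pump into the systemic circulation, because the ductus arteriosus joins the pulmonary artery to the aorta. After the ductus closes and the lungs expand, the LV works against systemic pressure and the RV against the lower pulmonary pressure. The LV descends mainly from the first heart field, in which the transcription factors Hand1 and Tbx5 act, and the RV mainly from the second heart field, in which Hand2 and Isl1 act. Whole ventricle holds cardiomyocytes, fibroblasts, endothelium, endocardium, epicardium, blood and macrophages. In such bulk samples fewer cells of a type and less RNA per cell cannot be told apart.

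The 6 libraries held 30488119 to 41061058 reads, of which 67.46% to 73.05% lay in the listed entries. Cardiomyocyte markers were abundant, with the ventricular light chain Myl2 between 14218 and 17811 RPKM. The summed level of 3 measured lung and thymus epithelial markers stayed at or below 0.0816 RPKM, and that of 5 liver markers at or below 2.95. The leading principal component of the 6 libraries held 45.6% of the variance and did not order them by chamber. LV and RV libraries of replicate number 1 both lay at 14.6 on it, against 3.8 and -6.7 for the other LV and -9.5 and -16.9 for the other RV libraries. Number 1 thus stood apart in both chambers, and libraries of the same number deviated together from their group means. A linear model with the replicate number as a block, which compares the chambers within each number, was therefore set beside the model of the group means.

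Of 10668 tested entries, 15 (0.141%) differed between the chambers at an adjusted p under 0.05. Of these, 9 (0.0844%) were lower and 6 (0.0562%) higher in the RV, with ratios of the group means between 1.45 and 11. In all 15 the 3 RV libraries did not overlap with the 3 LV libraries, and all 3 pairs of the same number had the same direction. The call nearly fixes both properties; over all tested entries 11.1% had no overlap and 43.1% the same direction in all pairs. With the replicate block 98 entries (0.919%) were called, the same 15 among them: 44 (0.412%) lower and 54 (0.506%) higher in the RV. The smallest ratio of means among the 98 was 1.26, the median 1.55 and the largest 13.1. The split by direction moved with the scaling of the libraries. Over all tested entries the median difference was -0.06 on the log2(RPKM + 1) scale, and 33.7% of entries lay above 0. Upper-quartile scaling gave 11 higher and 7 lower, and median-ratio scaling 11 higher and 8 lower. With the block these scalings gave 129 higher and 48 lower, and 164 higher and 42 lower.

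**Figure D1:**
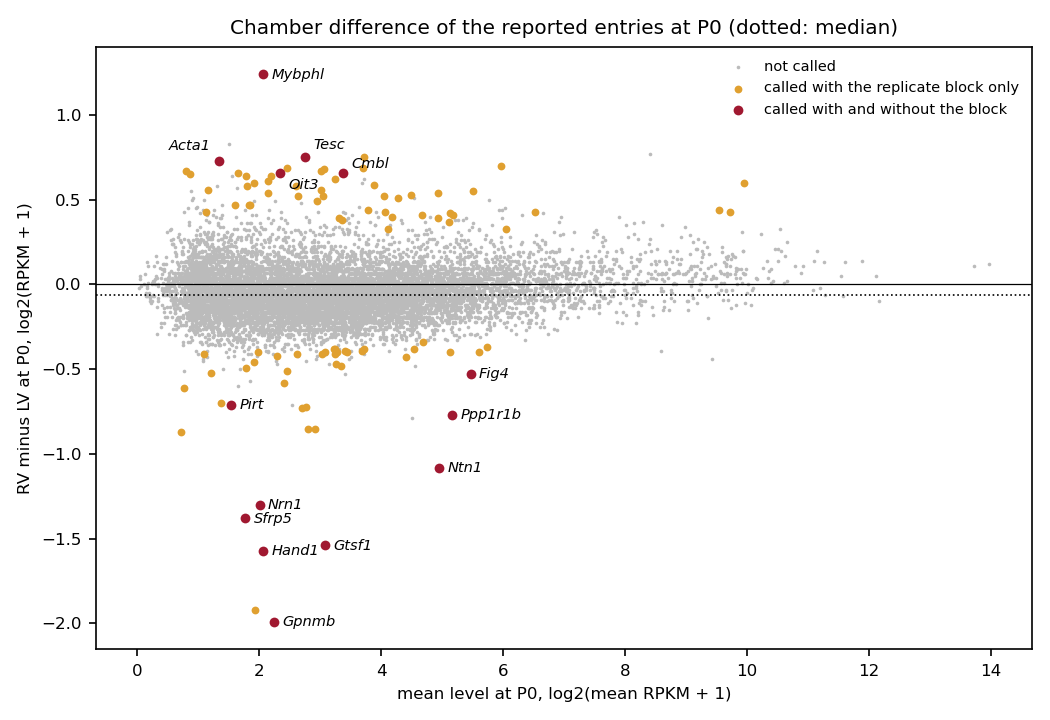
Difference between the chambers (RV minus LV, on the log2(RPKM + 1) scale) against the mean level at P0 for the tested entries, 1 point each. The 14 named entries were called with and without the replicate block, and the median of all entries (dotted) lies at -0.06.

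The count of 15 rested on few libraries. It was 33 without RV replicate 1, 5 without LV replicate 3, 4 without LV replicate 1 or RV replicate 2, and 2 without LV replicate 2 or RV replicate 3. Hand1 and Ntn1 were called in all 6 of these fits, Mybphl and Oit3 in 3, Gpnmb and Sfrp5 in 2, and Acta1 in none. Tesc, Cmbl, Gtsf1, Ppp1r1b, Fig4, Nrn1 and Pirt were called in 1. The 6 P0 libraries fitted alone gave 0 calls, with 566 entries at an unadjusted p under 0.05, and 61 calls with the replicate block.

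Hand1, a basic helix-loop-helix transcription factor of the first heart field and the developing LV, had the lowest adjusted p of all entries. Its level was 7.94, 3.82 and 4.22 RPKM in LV libraries 1, 2 and 3, and 0.989, 1.11 and 1.05 in the RV. Each LV library stood above each RV library, and the RV values lay close together, on 67 to 72 reads each. The mean was 5.09-fold higher in the LV, and the difference was -1.57 ± 0.16 (SE) on the log2 scale (RV minus LV, limma adjusted p = 0.000104). The log2(RPKM + 1) scale makes the change of such low entries smaller than their ratio. Hand1 lies on chromosome 11 at 57828713 to 57832147 (GRCm38.p6, the mm10 assembly).

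Ntn1 encodes netrin-1, a secreted guidance cue. It stood at 46, 36.8 and 39.6 RPKM in the LV and 25.1, 15.8 and 16.3 in the RV. The difference was -1.08 ± 0.13 (adjusted p = 0.000693), with the RV library of number 1 above the other RV libraries and still below every LV library. None of the other 20 tested members of the guidance list (semaphorins, ephrins, slits and their receptors) was called. Its receptor gene Unc5b lay at -0.15 (adjusted p = 0.819). Nrn1, which encodes the membrane-anchored neuritic growth protein neuritin, stood at 6.1, 3.94 and 4.01 RPKM in the LV and 2.04, 1.28 and 0.697 in the RV (-1.30 ± 0.23, adjusted p = 0.0231).

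Sfrp5, a secreted Wnt antagonist known from the sinus venosus and first-heart-field progenitors, was 4.16-fold higher in the LV. Its LV libraries held 5.35, 3.85 and 2.47 RPKM and its RV libraries 1.93, 0.537 and 0.334 (-1.38 ± 0.23, adjusted p = 0.0165). In both chambers it was highest in number 1 and lowest in number 3. Gtsf1, a zinc-finger factor of the germline piRNA pathway, was highest in number 1 and lowest in number 2 of either chamber, at 17.7, 7.54 and 9.46 RPKM in the LV and 5.83, 1.82 and 2.5 in the RV (-1.54 ± 0.30, adjusted p = 0.0449).

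Smaller but even differences were found for Fig4 and Ppp1r1b. Fig4, a phosphoinositide phosphatase of the endosome, had 52.9, 48.1 and 52.6 RPKM in the LV and 36.9, 32.4 and 36.4 in the RV (-0.53 ± 0.09, adjusted p = 0.0165). Its mean was 51.2 ± 2.66 (SD, n = 3) in the LV and 35.2 ± 2.44 in the RV, so the chambers were set further apart than the libraries within either. Ppp1r1b, which encodes the protein phosphatase 1 inhibitor DARPP-32, had 49.9, 43 and 39 RPKM in the LV and 31.6, 25.5 and 20.04 in the RV (-0.77 ± 0.15, adjusted p = 0.0449). Tcap, the telethonin gene near Ppp1r1b on chromosome 11, lay at -0.12 (adjusted p = 0.869). Pirt, a regulator of TRP channels known from sensory neurons, had 2.25, 3.01 and 2.47 RPKM in the LV and 1.75, 1.26 and 0.677 in the RV (-0.71 ± 0.14, adjusted p = 0.0477). The ninth, Gpnmb, is described with the macrophage genes below.

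Mybphl, a myosin-binding protein of atrial and conduction-system cardiomyocytes, had the largest difference toward the RV among the called genes. It stood at 1.27, 1.4 and 1.75 RPKM in the LV and 4.44, 3.89 and 6.34 in the RV, 3.32-fold higher by the means (1.24 ± 0.20, adjusted p = 0.0165). No RV library came near the LV range. The summed level of 10 atrial marker genes was 1289, 1022 and 1047 RPKM in the LV and 1246, 888 and 1194 in the RV, so its ranges overlapped. Nppa was the largest part of this sum, at 943, 738 and 692 RPKM in the LV and 660.1, 497 and 581 in the RV. The sum therefore does not show how the other markers differed. Of the 9 tested, 6 lay above 0 and 3, Nppa among them, below. None of the 9 tested atrial markers was called, and their median difference was 0.14. The atrial light chain Myl7 had 247, 222 and 269 RPKM in the LV and 464, 322 and 495 in the RV, without overlap, but did not pass (0.77 ± 0.31, adjusted p = 0.669, 0.0895 with the block). The part of atrial tissue in the Mybphl difference was not tested.

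The other genes described as higher in the RV were expressed at low levels. Tesc, a calcium-binding regulator of the sodium-proton exchanger NHE1, had 3.98, 4.35 and 3.66 RPKM in the LV and 6.13, 8.76 and 7.43 in the RV (0.75 ± 0.15, adjusted p = 0.0452). Oit3, a secreted zona pellucida domain protein, had 2.49, 2.72 and 3.61 against 5.67, 4.51 and 5.48 RPKM (0.66 ± 0.12, adjusted p = 0.0231). These values were all above the LV range, most widely in number 1 for Oit3 and in number 2 for Tesc. Cmbl, a cytosolic hydrolase, had 7.7, 6.17 and 7.34 against 10.7, 11.9 and 12.7 RPKM (0.66 ± 0.12, adjusted p = 0.0237). Acta1, skeletal alpha-actin, had 1.05, 1.06 and 0.586 against 2.18, 2.07 and 2.16 RPKM (0.73 ± 0.14, adjusted p = 0.0449). Its value is uncertain: it is 1 of 2 entries of the gene, and the cardiac paralog Actc1, nearly identical in sequence, stood at 12814 and 14041 RPKM in the LV and RV.

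**Figure D2:**
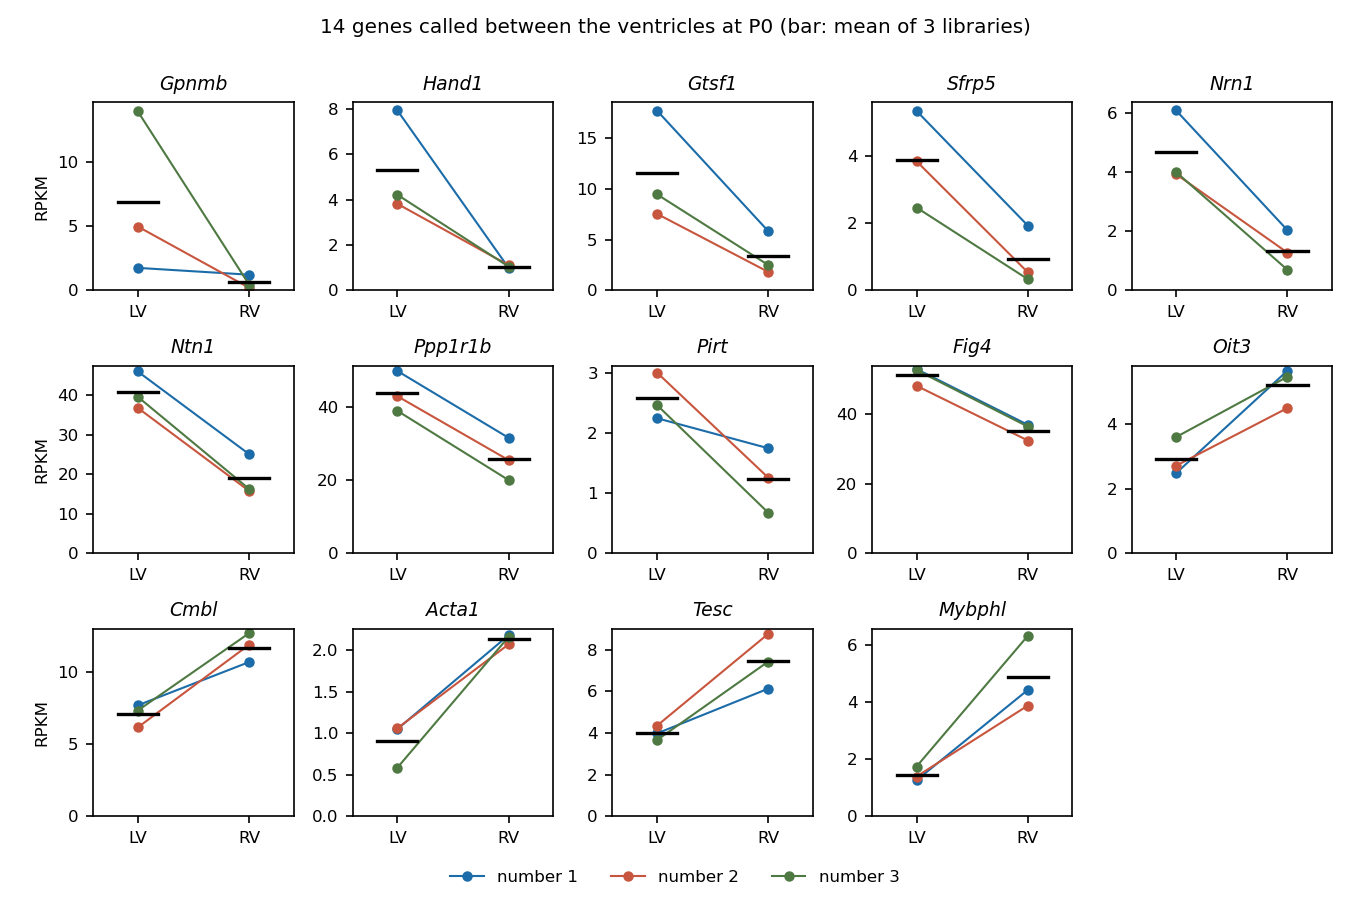
Level (RPKM, linear axis from 0) of 14 called genes in each P0 library, with lines joining LV and RV libraries of the same replicate number and bars for the mean of 3. In every panel the LV and RV points do not overlap and all 3 lines run in the same direction.

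The RefSeq promoter table (GRCm38.p6) held 8 of the called genes, and the 250 bases before each start were searched on both strands for short motifs. The motifs were AGATAA for GATA factors, GGTGTGA for T-box factors, TATAAA for the TATA box, and the MEF2 consensus. AGATAA was found in 9.99%, GGTGTGA in 3.33%, TATAAA in 12.4% and the MEF2 consensus in 0.508% of all 32851 promoter windows of this length. Among the 8, Sfrp5 held 2 AGATAA matches, Mybphl 1, and Acta1 1 TATAAA match; no T-box or MEF2 match was found in these windows. These promoters are shown because they hold the matches, and Gpnmb because it had the largest difference of all, from 5' to 3' on the gene's strand with matches in capitals. A match is a description of these letters only.
Sfrp5 (chr19:42202253-42202502, minus strand): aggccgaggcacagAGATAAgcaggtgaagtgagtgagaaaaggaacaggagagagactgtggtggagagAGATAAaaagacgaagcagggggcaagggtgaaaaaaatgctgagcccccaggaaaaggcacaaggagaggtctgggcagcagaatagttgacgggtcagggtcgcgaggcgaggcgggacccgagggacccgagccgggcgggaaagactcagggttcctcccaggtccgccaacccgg
Mybphl (chr3:108364661-108364910, plus strand): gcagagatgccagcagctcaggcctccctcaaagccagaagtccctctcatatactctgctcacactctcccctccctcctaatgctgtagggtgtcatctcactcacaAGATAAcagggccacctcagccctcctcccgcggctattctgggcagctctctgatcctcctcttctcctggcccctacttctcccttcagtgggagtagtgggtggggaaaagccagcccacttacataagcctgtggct
Acta1 (chr8:123894776-123895025, minus strand): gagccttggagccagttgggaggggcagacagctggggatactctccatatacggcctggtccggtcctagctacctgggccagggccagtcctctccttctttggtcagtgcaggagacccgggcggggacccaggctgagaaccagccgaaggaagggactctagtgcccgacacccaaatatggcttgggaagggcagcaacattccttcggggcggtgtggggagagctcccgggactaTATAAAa
Gpnmb (chr6:49036268-49036517, plus strand): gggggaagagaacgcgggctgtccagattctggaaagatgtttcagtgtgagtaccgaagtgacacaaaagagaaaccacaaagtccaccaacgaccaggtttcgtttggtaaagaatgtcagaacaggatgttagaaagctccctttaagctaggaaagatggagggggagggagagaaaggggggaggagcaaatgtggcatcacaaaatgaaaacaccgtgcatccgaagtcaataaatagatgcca
Counted from the start, the AGATAA matches began at -236 and -180 in Sfrp5 and at -141 in Mybphl, and the TATAAA match at -7 in Acta1. G and C made up 59.6% of the Sfrp5, 57.2% of the Mybphl, 61.2% of the Acta1 and 47.2% of the Gpnmb window, against a median of 52.4% over all windows.

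Among cardiac chamber transcription factors, 26 of 33 listed genes were tested. Hand1 alone was called, against 0.0844% of all tested entries called lower. The median difference of the 26 was -0.13 (-0.07 under median-ratio scaling), and 23 lay below 0. All tested entries had a median of -0.06, with 33.7% above 0. With the replicate block Irx1, Tbx5 and Mef2a were also lower in the RV, so that 4 of 26 were called lower, against 0.412% of all tested entries. The homeobox gene Irx1, a ventricular patterning factor, had 8.16, 7.16 and 8.18 RPKM in the LV and 6.49, 2.73 and 3.17 in the RV (-0.85 ± 0.19, adjusted p = 0.125, 0.00332 with the block). Its RV library of number 1 lay near the LV range and the other RV libraries far below it. The first-heart-field factor Tbx5 had 13.7, 9.82 and 10.4 against 10.7, 7.42 and 7.04 RPKM (-0.40 ± 0.14, adjusted p = 0.628, 0.0274 with the block). These ranges overlapped, and within each number the RV value was the lower. Mef2a, a cardiomyocyte MADS-box factor, had 62.7, 53.2 and 60.5 against 52.3, 43 and 41.3 RPKM (-0.37 ± 0.11, adjusted p = 0.408, 0.0273 with the block).

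The remaining patterning genes did not pass either fit. Hand2, the second-heart-field relative of Hand1, had 49.8, 42.8 and 40.1 RPKM in the LV and 47.2, 44.1 and 43.6 in the RV, a difference of 0.03 ± 0.11 (adjusted p = 0.957). Irx2 lay at -0.53 ± 0.22, Irx4 at -0.25 ± 0.11, Irx5 at -0.24 ± 0.19, Tbx20 at -0.15 ± 0.13 and the coactivator Cited1 at -0.18 ± 0.20. All 14 tested genes of the second heart field and outflow tract list missed the threshold in both fits, with differences from -0.11 to 0.23 and a median of 0.04. No listed factor was called higher in the RV in either fit.

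Of 18 tested Wnt signalling genes, Sfrp5 was called lower in the RV, against 0.0844% of all tested entries. With the block Wif1, another secreted Wnt inhibitor, was called higher, against 0.506% of all tested entries. Wif1 had 8.62, 7.9 and 9.9 RPKM in the LV and 14.6, 13.8 and 18.2 in the RV (0.75 ± 0.15, adjusted p = 0.0557, 0.00283 with the block). The ranges were apart by several RPKM in all 3 numbers. The list median was 0.03. In the retinoic acid pathway 9 genes were tested. With the block the synthesizing enzyme Aldh1a2 was called lower in the RV, against 0.412% of all tested entries. Aldh1a2 had 14.1, 14 and 13.8 RPKM in the LV and 11.2, 9.98 and 10.2 in the RV (-0.38 ± 0.11, adjusted p = 0.364, 0.0274 with the block). None of the 22 BMP and TGF-beta or the 16 Notch pathway genes tested was called in either fit.

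Of 13 tested genes of the fetal-type sarcomere and stress list 11 lay above 0, against 33.7% of all tested entries. Their median was 0.29, against -0.06 over all entries. Acta1 was called higher, against 0.0562% of all tested entries. With the block Ankrd1, a titin-associated stretch-responsive protein, was also called higher, against 0.506% of all tested entries. Ankrd1 had 563, 855 and 919 RPKM in the LV and 805, 1215 and 1572 in the RV (0.60 ± 0.27, adjusted p = 0.692, 0.00113 with the block). In both chambers it was lowest in number 1 and highest in number 3, so the chamber ranges overlapped while each pair differed by 0.51 to 0.77. The natriuretic peptide genes lay on different sides of 0 without passing. Nppa stood at 943, 738 and 692 RPKM in the LV and 660.1, 497 and 581 in the RV (-0.44 ± 0.29, adjusted p = 0.731), and Nppb at 176, 292 and 355 against 265, 336 and 441 (0.37 ± 0.27, adjusted p = 0.751). The fetal myosin heavy chain Myh7 differed by -0.07 ± 0.36 and the adult one, Myh6, by 0.24 ± 0.27.

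Of 21 adult-type contractile and calcium-handling genes, the M-band gene Myom2 was called higher, with the block, against 0.506% of all tested entries. Myom2 had 29.1, 58.8 and 47.4 RPKM in the LV and 36.8, 99.96 and 95.9 in the RV (0.70 ± 0.27, adjusted p = 0.663, 0.00192 with the block). Nmrk2, a muscle nicotinamide riboside kinase, had 5.06, 10.7 and 10.2 against 6.84, 17.9 and 21.5 RPKM (0.69 ± 0.35, adjusted p = 0.698, 0.00283 with the block). Both were lowest in number 1 in each chamber. Myl9, a smooth-muscle and non-muscle light chain, had 713, 773 and 670.3 against 864, 979 and 1060.1 RPKM (0.43 ± 0.16, adjusted p = 0.658, 0.0218 with the block). The levels of 7 cardiomyocyte markers summed to between 31896 and 40817 RPKM over the 6 libraries, and none of them was called. Of 26 oxidative phosphorylation genes 24 lay above 0, against 33.7% of all tested entries, with a median of 0.14. Only Cox8b, a cytochrome c oxidase subunit, was called higher, with the block, against 0.506% of all tested entries. Cox8b had 526, 714 and 643 RPKM in the LV and 712, 930.5 and 907 in the RV (0.44 ± 0.13, adjusted p = 0.381, 0.0101 with the block). None of the 26 fatty acid oxidation or 22 glycolysis genes tested was called in either fit. Of these, 20 and 15 lay above 0, as did 16 of the 21 contractile and calcium-handling genes, so oxidative phosphorylation was not alone in this.

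**Figure D3:**
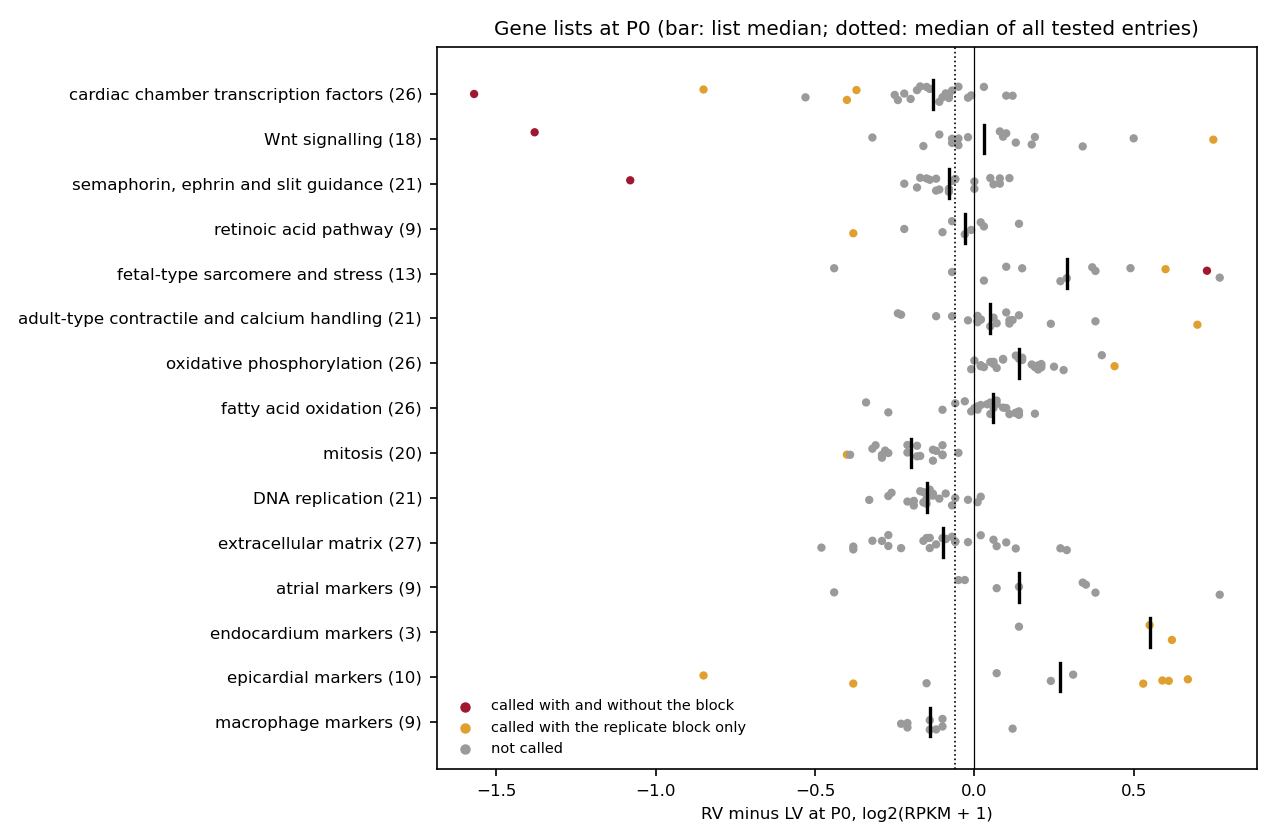
Difference between the chambers at P0 (RV minus LV, log2(RPKM + 1)) of each tested member of 15 gene lists, with the number tested in parentheses, a bar for the list median and a dotted line for the median of all entries (-0.06). Hand1, Sfrp5, Ntn1 and Acta1 are the 4 members called in both fits (red), and the epicardial list holds members called with the block in both directions.

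Epicardium and mesothelium, the sheet that covers the heart, gave calls in both directions with the block and none without it. Of 10 tested epicardial markers, Upk1b, Upk3b, Krt8 and Msln were higher and Tbx18 and Aldh1a2 lower in the RV, against 0.506% and 0.412% of all tested entries. The uroplakin gene Upk1b had 6.44, 2.56 and 6.43 RPKM in the LV and 12.3, 4.09 and 10.7 in the RV (0.67 ± 0.29, adjusted p = 0.676, 0.012 with the block). Mesothelin (Msln) had 13.7, 5.59 and 13.3 against 20.6, 9.47 and 20 RPKM (0.59 ± 0.26, adjusted p = 0.678, 0.00869 with the block). Both were lowest in number 2 of either chamber, so the ranges overlapped, and every RV value exceeded the LV value of its number. The keratins Krt7 (0.69, adjusted p = 0.669, 0.00192 with the block) and Krt18 (0.58, 0.698 and 0.00869) and the claudin Cldn15 (0.54, 0.678 and 0.0454), which are not on the list, followed the same pattern.

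Tbx18, a T-box factor of epicardium and sinus venosus, went the other way, at 9.85, 7.27 and 8.19 RPKM in the LV and 8.09, 2.66 and 3.22 in the RV (-0.85 ± 0.23, adjusted p = 0.343, 0.00869 with the block). The epicardial factor Wt1 had 7.01, 5.63 and 6.12 against 5.17, 5.35 and 6.08 RPKM and did not pass (-0.15 ± 0.13, adjusted p = 0.787, 0.527 with the block). The summed level of the 10 markers was 104, 52.5 and 85 RPKM in the LV and 122, 57 and 105 in the RV. This sum includes Upk1b, Upk3b, Krt8 and Msln, which were called higher and carry its excess in the RV. It is therefore not separate from those calls. The part of epicardial tissue in these differences was not tested.

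The endocardial list had 3 tested members, and 2 were called higher in the RV with the block, against 0.506% of all tested entries. Plvap, a diaphragm protein of fenestrated endothelium, had 38.5, 32 and 35.4 RPKM in the LV and 62.3, 38.5 and 58.6 in the RV (0.55 ± 0.16, adjusted p = 0.408, 0.0185 with the block). Tmem100, a membrane protein induced by BMP signalling in endothelium, had 5.03, 6.86 and 7.63 against 9.85, 10.7 and 10.8 RPKM (0.62 ± 0.17, adjusted p = 0.343, 0.0158 with the block). The third, Cdh11, differed by 0.14. None of the 11 tested general endothelial markers was called in either fit, and their median was -0.01.

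No member of the fibroblast, smooth muscle, pericyte, conduction system, erythroid or extracellular matrix lists was called in either fit. The 12 fibroblast markers summed to 578, 455 and 509 RPKM in the LV and 549, 428 and 507 in the RV, so the chambers overlapped and number 2 was lowest in both. Red-cell transcripts moved with the number as well, with erythroid markers summing to 2417, 1573 and 2136 RPKM in the LV and 2934, 1282 and 2244 in the RV. Among 27 tested matrix genes the median was -0.10. Periostin (Postn), a matrix protein of fibroblasts and valve cushions, had 23.7, 25.2 and 30.5 RPKM in the LV and 21.1, 17 and 17.8 in the RV, without overlap, and missed the threshold (-0.48 ± 0.12, adjusted p = 0.275, 0.0537 with the block).

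Gpnmb, a transmembrane glycoprotein of macrophages and other phagocytic cells, had the largest difference of all tested entries on the log2 scale. It stood at 1.75, 4.96 and 13.9 RPKM in the LV and 1.22, 0.205 and 0.45 in the RV (-1.99 ± 0.39, adjusted p = 0.0449). The LV libraries were far apart, and number 1 differed between chambers by only -0.31, against -2.31 and -3.36 in the others. The SE of Gpnmb rests on a spread pooled over all ages, although its SD in the LV was 6.28 RPKM at P0 and 0.39 at P7. It therefore does not measure the spread of the P0 libraries alone. Osteopontin (Spp1) had 1.47, 4.46 and 9.69 against 0.863, 0.168 and 0.232 RPKM (-1.92 ± 0.48, adjusted p = 0.263, 0.02 with the block). The macrophage elastase Mmp12 had 0.176, 0.973 and 2.38 against 0.0622, 0.116 and 0.0917 RPKM (-0.87 ± 0.25, adjusted p = 0.381, 0.0329 with the block). All 3 genes were lowest in number 1 and highest in number 3 of the LV. Lysozyme (Lyz2) and cathepsin S (Ctss) had differences of -0.79 and -0.60 and did not pass (adjusted p = 0.343 and 0.364, 0.0637 and 0.0554 with the block).

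General macrophage markers differed less than these genes. The summed level of 9 of them (Csf1r, Adgre1, the C1q genes and others) was 70.1, 73.1 and 80.7 RPKM in the LV and 72.2, 73.3 and 61.5 in the RV. The LV sums had the same order of numbers as Gpnmb, and the median difference of the markers was 0.10 in number 1, -0.05 in number 2 and -0.40 in number 3. None was called in either fit: 8 lay below 0, and their median was -0.14, with differences from -0.23 to 0.12. The part of macrophage state or number in the Gpnmb difference was not tested.

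**Figure D4:**
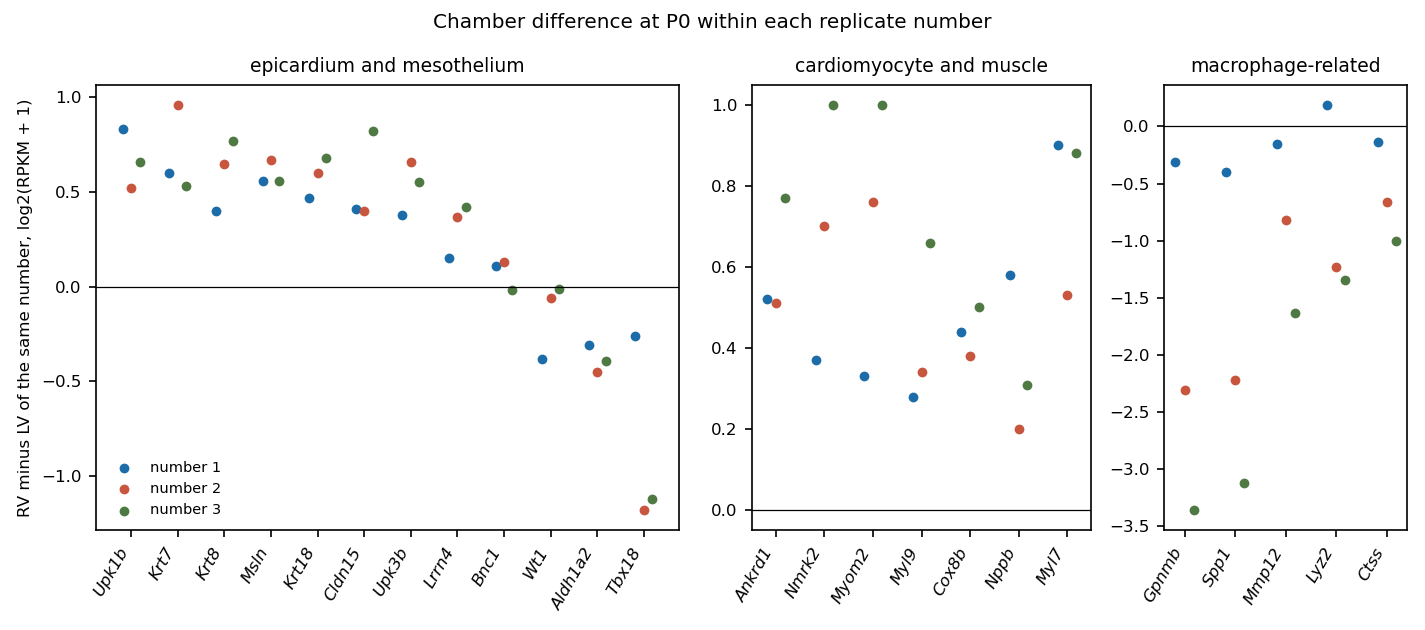
Difference between RV and LV libraries of the same replicate number (log2(RPKM + 1)) for epicardial and mesothelial, muscle and macrophage-related genes at P0, 1 point per number. Keratin, uroplakin and mesothelin genes lie above 0 in all 3 numbers and Tbx18 and Aldh1a2 below, while Gpnmb runs from -0.31 in number 1 to -3.36 in number 3.

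Genes of the mitosis and DNA replication lists lay mostly slightly below 0, with 1 call among them. All 20 tested mitosis genes did so, with a median of -0.20, and 19 under upper-quartile or median-ratio scaling (medians -0.15 and -0.13). Of all tested entries 33.7% lay above 0, with a median of -0.06. Mki67, the Ki-67 proliferation marker, was called lower with the block, against 0.412% of all tested entries. Mki67 had 62.1, 50.2 and 49.9 RPKM in the LV and 48.5, 39.6 and 34.9 in the RV (-0.40 ± 0.13, adjusted p = 0.608, 0.0177 with the block). Cyclin B1 (Ccnb1) had 70.6, 62.2 and 65.6 against 75.5, 51 and 60.1 RPKM (-0.10 ± 0.18), so its ranges overlapped. Of 21 DNA replication genes 19 lay below 0, with a median of -0.15 (-0.09 under median-ratio scaling) and no call in either fit. The replication clamp Pcna, for example, differed by -0.14 ± 0.12.

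The chamber differences of P0 were followed to P3 and P7, where 88 (0.825%) and 17 (0.159%) entries were called, and 639 (5.99%) and 107 (1.003%) with the block. Of the 15 genes called at P0, 14 had the same direction at P3 and 11 at P7, against 60.4% and 56.3% of all tested entries. Only 4 were called again at P3 (Hand1, Ntn1, Nrn1 and Oit3; 26.7% of the P0 calls and 4.55% of the P3 calls). At P7 it was Nrn1 alone (6.67% of the P0 and 5.88% of the P7 calls). The median size of the 15 differences was 0.92 at P0, 0.47 at P3 and 0.20 at P7. The 15 were chosen for their difference at P0, so these sizes are a description. The log2(RPKM + 1) scale also shrinks the difference of a gene whose level falls, even at an unchanged ratio.

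Nrn1 kept its LV bias, at -1.45 ± 0.23 at P3 (adjusted p = 0.00437) and -1.69 ± 0.25 at P7 (adjusted p = 0.0079). Its LV mean was 4.68 RPKM at P0, 4.15 at P3 and 3.75 at P7, and its RV mean 1.34, 0.989 and 0.472. Hand1 lay at -0.95 ± 0.16 at P3 and -0.18 ± 0.18 at P7, while its levels fell. Its LV mean was 5.33, 1.34 and 0.134 RPKM at the 3 ages. The RV mean was 1.05 at P0 and 0.219 at P3, and both RV P7 libraries listed Hand1 at 0. The smaller differences therefore do not show a smaller ratio between the chambers. Ntn1 lay at -0.57 ± 0.13 at P3 (adjusted p = 0.0489) and -0.32 ± 0.15 at P7. Among the named genes called at P0 only with the block, 3 were called higher in the RV at both later ages without it. These were Wif1 (1.02 and 0.98), monoamine oxidase B (Maob, 0.56 at P0, 0.70 and 0.80 later) and the leucine-rich repeat gene Lrtm1 (0.56, then 0.97 and 0.92). With the block Upk1b, Upk3b, Msln and Krt7 were also called higher in the RV at P3 and P7 (limma adjusted p of 0.000257 or less). In that fit Krt8 and Cldn15 were called higher at P3 but not at P7 (adjusted p = 0.0715 and 0.104), and Krt18 at neither age. Tbx18 and Aldh1a2, called lower at P0 with the block, lay at -0.07 and 0.04 at P3 and were called at neither later age.

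The change in the chamber difference between ages was tested directly. From P0 to P3 no entry (0%) passed, with 535 at an unadjusted p under 0.05, and 101 (0.947%) passed with the block. From P0 to P7 4 entries (0.0375%) passed, and 35 (0.328%) with the block. These 4 were Hand1 (1.39 ± 0.25), Nppb (-2.33), Phkg1 (1.07) and Mybphl (-1.74 ± 0.30), all at an adjusted p of 0.049. None of them passed with a pseudocount of 0.1, with a filter on the P0 mean, or under upper-quartile or median-ratio scaling. Nppb went from 275 and 347 RPKM (LV and RV means) at P0 to 91.5 and 28.8 at P3 and 169 and 43.4 at P7. Its chamber difference went from 0.37 ± 0.27 at P0 to -1.63 ± 0.27 at P3, a change with an adjusted p of 0.18, or 2.5e-05 with the block. Ankrd1, higher in the RV at P0 within pairs, lay at -0.99 at P3 (change -1.59, adjusted p = 0.504, 9.86e-07 with the block). Some mesothelial genes lay further above 0 at P3, with Msln at 1.61 and Upk3b at 1.76. These changes were 1.01 and 1.23 (adjusted p = 0.824 and 0.806, 0.00333 and 0.00205 with the block). Krt8 instead went from 0.61 to 0.45 and Krt18 from 0.58 to 0.29, while Cldn15 stayed near its P0 value, at 0.54 and then 0.64.

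**Figure D5:**
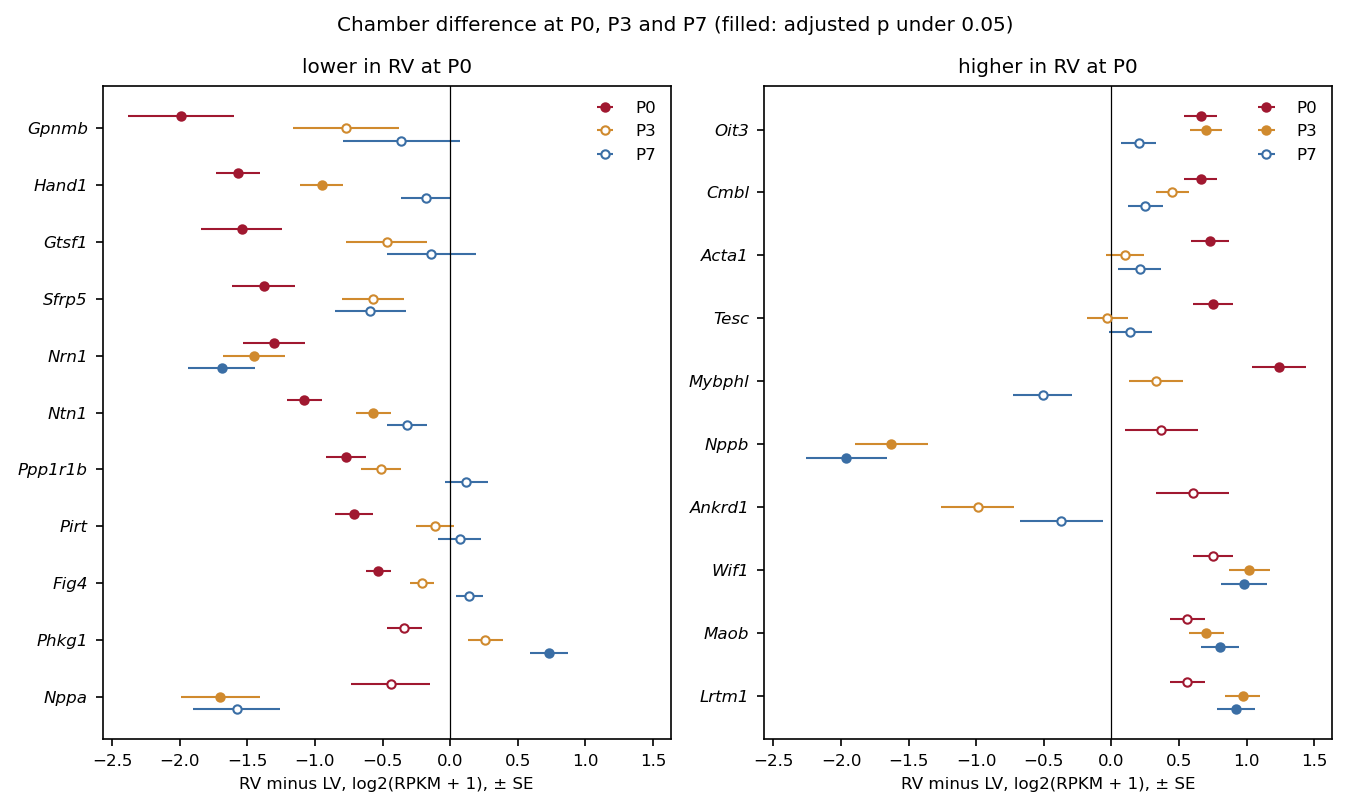
Difference between RV and LV (log2(RPKM + 1), point ± SE) at P0, P3 and P7 for 14 genes called at P0 and 7 others, with filled points for an adjusted p under 0.05 without the block. Nrn1 lies at -1.30 or below at all 3 ages, Hand1 runs from -1.57 to -0.18, and Nppb from 0.37 to -1.96.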

How the data were processed

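Total RNA of male mouse ventricles (RNeasy Mini kit, strand-specific paired-end libraries, per the labels' protocols) was aligned with STAR 2.4.0j to mm10, per the submitters' processing notes. The authors deposited RPKM values, reads scaled by transcript length and library size, 1 per RefSeq messenger RNA entry. The unit was inferred from the values, since whole reads were recovered for all 20624 entries within a tolerance of 0.02. The counting tool, and how the authors assigned reads shared by the entries of the 2853 genes with several, are not stated in the labels. Names and coordinates came from RefSeq (20379 entries) and GENCODE M21 (76).

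The model took log2(RPKM + 1) of the 10668 entries that reached 1 RPKM in 2 or more of 17 libraries, and the means of 6 groups were fitted with limma 3.58.1 (trend; R 4.3.3). Tests were two-sided, with Benjamini-Hochberg adjustment over all of them and a threshold of 0.05; the fit was tested on simulated data. The design had been written for counts or normalized values, and the latter branch applied. No label pairs the libraries. Deviations of same-numbered LV and RV libraries from their group means correlated at 0.49, 0.59 and 0.40 at P0 and at 0.27 to 0.50 later, so the numbers were taken as pairs. Other numbers gave -0.40 to 0.09. Deviations sum to 0 within a group, so these lower values partly follow from the positive ones and are no independent control. Unless the P0 libraries were fitted alone, the spread behind each SE and p-value was pooled over the libraries of all ages. The 15 pairs of P0 libraries held no duplicate.

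Named genes were 14 of the 15 called at P0 (the other is not reported here), the chamber and natriuretic genes always named, up to 3 called members per list, the age differences, and genes called with the block, some chosen after their values were seen. The members and the 42 lists were chosen with earlier results of these data known. No set test was run. Alternatives numbered 16 planned and 8 chosen after seeing the data. Tables and figures used Python 3.11.15, numpy 2.4.6, pandas 2.3.3 and matplotlib 3.10.9.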

Additional observations from a re-analysis of the deposited data

Results flagged for a closer look

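The chamber difference (RV minus LV) of 4 genes at P7 differed from that at P0 by a test of the change itself, each at a limma adjusted p of 0.049. All 4 lost the call with a pseudocount of 0.1, with a filter on the P0 mean, and under upper-quartile or median-ratio scaling, each of which gave 0 calls. For Hand1 the change was 1.39, since the LV mean of 5.33 RPKM at P0 was 0.134 at P7 and the RV mean of 1.05 was listed at 0. For Nppb, the B-type natriuretic peptide, it was -2.33, with RV above LV means at P0 (347 against 275 RPKM) and below them at P7 (43.4 against 169). For Phkg1, a muscle phosphorylase kinase subunit, it was 1.07: the RV mean was 0.476 against 0.87 RPKM in the LV at P0 and 1.75 against 0.66 at P7. For Mybphl it was -1.74, from 4.89 against 1.47 RPKM at P0 to 1.54 against 2.53 at P7. RV P7 held 2 libraries, and for Mybphl these stood at 0.924 and 2.16 RPKM. For Hand1, whose level fell, the log2(RPKM + 1) scale shrinks a difference even at an unchanged ratio. With the replicate block the adjusted p-values were 0.0115, 6.04e-05, 0.00707 and 0.000717.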

How the results depend on the processing

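All 15 genes called at P0 kept their direction under all 24 alternatives. As their chambers did not overlap, a change of pseudocount or filter, the block or the loss of libraries could not reverse it. The count of 15 was 11 with a pseudocount of 0.1, 18 with 5, 12 without a filter and 16 with a P0 mean of at least 1 RPKM. It was 9 by limma voom on the recovered reads (8 of the 15 among them), and 0 with the P0 libraries alone. With the replicate block it was 98, and 61 with the block on P0 libraries alone; with upper-quartile and median-ratio scaling added it was 177 and 206. Leaving out 1 library gave 2 to 33. Leaving out both P0 libraries of number 1, 2 or 3 gave 19, 2 and 3 without the block and 101, 43 and 21 with it. Listed genes called, 4 in all, were 2 with a pseudocount of 0.1, 2 without a filter, 0 with P0 libraries alone, 20 with the replicate block, 18 with the block on P0 alone, and 2 to 7 without 1 library. The change of the chamber difference from P0 to P3 gave 0 calls and 101 with the replicate block. That from P0 to P7 gave 4, but 0 with a pseudocount of 0.1, 0 with the P0 mean filter, 0 under either scaling, 35 with the replicate block, and 0 to 4 without 1 library. The cause was not tested, except that fits with fewer libraries hold fewer degrees of freedom. Depth limits genes such as Spp1, with 4 to 22 reads in RV libraries.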

Other observations

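With the replicate block, further genes were called at P0 that the text has not described. Higher in the RV were the relaxin receptor Rxfp1, at 4.31, 5.6 and 6.23 RPKM in the LV and 7.1, 10.1 and 10.6 in the RV (0.68, adjusted p = 0.508, 0.00332 with the block), and the chemokine-like Rarres2, at 25.4, 19.4 and 26.4 against 44.8, 28.3 and 32.5 (0.54, adjusted p = 0.275, 0.00729 with the block). The chemokine Cxcl12 had 34.4, 24.4 and 32 against 39.3, 38.7 and 42.9 RPKM (0.41, adjusted p = 0.482, 0.029 with the block), and the matrix protein spondin 1 (Spon1) 14.5, 9.73 and 13.7 against 20.9, 14.3 and 20.3 (0.52, adjusted p = 0.408, 0.012 with the block). The Cxcl12 values are those of 1 of its 3 entries. Another tested entry had means of 2.765 RPKM in the LV and 2.672 in the RV and was not called (-0.05, adjusted p = 0.945, 0.85 with the block). Lower in the RV were the metalloprotease Adamts19, at 8.41, 6.06 and 7.87 against 4.56, 3.46 and 4.36 RPKM (-0.72, adjusted p = 0.0527, 0.000906 with the block), and the carnosine synthase Carns1, at 9.3, 11.6 and 9.18 against 5.83, 8.4 and 6.81 (-0.47, adjusted p = 0.628, 0.00871 with the block).

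Other genes were also called lower in the RV with the block, among them Pde3b (-0.51), Hlx (-0.41) and Ddb2 (-0.40). Their limma adjusted p was 0.0163, 0.0273 and 0.0454 with the block, and 0.366, 0.669 and 0.658 without it. The histone chaperone Nasp had 26.9, 26.2 and 22.8 RPKM in the LV and 19.6, 20.8 and 17.1 in the RV (-0.38, adjusted p = 0.564, 0.0423 with the block). The DNA glycosylase Neil3 had 10.9, 11.4 and 10.7 against 9.08, 7.52 and 7.83 (-0.39, adjusted p = 0.669, 0.0474 with the block), and the mitotic kinesin Kif20b 11, 9.76 and 9.31 against 8.79, 6.89 and 6.49 (-0.40, adjusted p = 0.628, 0.0351 with the block). These genes were chosen after their values were seen.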
